A study of Mus musculus with 15 samples.

Results

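Genes were sought whose dependence on STAT5 differed between BMDMs stimulated with rmGM-CSF and BMDMs stimulated with 4T1 CM. The STAT5 effect on a gene is the log2 expression in STAT5cKO minus that in STAT5fl/fl BMDMs, and the difference tested was the STAT5 effect with 4T1 CM minus the STAT5 effect with rmGM-CSF. It compared the 10 libraries of these media in a model fitted to all 15 of the series. Of the 13005 genes tested, 277 had such a difference (2.13%, edgeR quasi-likelihood test with the mouse as a block, Benjamini-Hochberg adjusted p under 0.01). BMDMs are macrophages grown from bone marrow, here of 2 STAT5fl/fl and 3 STAT5cKO BALB/c mice aged 6 weeks. Each mouse gave 1 library in serum-free DMEM, 1 with 20 ng/mL recombinant mouse GM-CSF (rmGM-CSF) and 1 with 4T1 CM, the medium conditioned by the mouse mammary tumor line 4T1, all after 2 h. Mice of both genotypes carried the floxed Stat5 alleles, and in STAT5cKO mice they were deleted by the Csf1r-iCre transgene, which is active in myeloid cells and is not limited to macrophages.

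GM-CSF binds a receptor made of an alpha chain, Csf2ra, and the common beta chain, Csf2rb, and the kinase JAK2 on that receptor phosphorylates STAT5A and STAT5B, which then enter the nucleus and bind DNA. The same receptor also signals to ERK, PI3K and NF-kB. Among the genes STAT5 induces are Cish and the Socs genes, whose products bind cytokine receptors or JAK kinases and dampen the signal. A tumor-conditioned medium is a mixture of secreted factors in which GM-CSF, known to be made by 4T1 cells, is one of several stimuli.

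The deleted genes were as labelled in all 15 libraries. Stat5a had 637 to 918 counts in the STAT5fl/fl libraries and 0 to 3 in the STAT5cKO libraries, and Stat5b had 977 to 1654 and 0 to 4. Library totals ran from 16016736 to 22883108 counts, and 3 counts, taken as the floor of detection, corresponded to 0.131 to 0.187 CPM, a floor that covers counting error only. With 4T1 CM the STAT5cKO totals lay above the STAT5fl/fl totals without overlap, and after thinning all libraries to the smallest total 273 genes had a called difference, 260 of them among the 277. The 8 macrophage markers were all expressed. Their summed level was 24599 to 25758 CPM in STAT5fl/fl against 34700 to 37215 CPM in STAT5cKO BMDMs with rmGM-CSF. It was 28015 to 28690 against 36018 to 44333 CPM with 4T1 CM, higher in STAT5cKO without overlap in both, with Lyz2 the most abundant (16268 to 32763 CPM over the 15 libraries). The STAT5 effect differed between the media in 0 of these 8 markers by edgeR, the likelihood ratio test or DESeq2, and in 0 at an unadjusted p under 0.05 (13.6% of all genes), with the lowest adjusted p at 0.408 (Cd14). Summed markers of neutrophils reached 2.25 CPM, of B cells 0.131 CPM and of dendritic cells 4.45 CPM in the 10 libraries, and Cpa3, Mcpt4, Cma1, Krt14, Ly6g and Cd8a were at 0 counts. Kit, the mast cell marker detected, was at 18.4 to 22.4 CPM in STAT5fl/fl and 3.68 to 6.1 CPM in STAT5cKO BMDMs with rmGM-CSF, and at 6.07 to 7.86 and 1.12 to 3.98 CPM with 4T1 CM. T cell markers, mainly Cd4 with Lck at 0.491 to 1.87 CPM over the 15 libraries, summed to 10.1 to 10.6 CPM in STAT5fl/fl and 7.08 to 7.997 CPM in STAT5cKO BMDMs, and fibroblast markers to 1.08 to 2.21 CPM and 2.43 to 8.26 CPM. Epithelial markers, mainly Cdh1, summed in STAT5fl/fl and STAT5cKO BMDMs to 1.11 to 1.37 and up to 0.0488 CPM with rmGM-CSF and to 3.04 to 4.21 and 1.17 to 2.1 CPM with 4T1 CM, and the difference of Cdh1 was not called (adjusted p = 0.0154). The part of these levels in the differences below was not tested, and in bulk RNA fewer cells of a type and less RNA per cell cannot be told apart.

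The STAT5 effect was called for 1275 genes with rmGM-CSF (9.8%), 811 of them lower (6.24%) and 464 higher (3.57%) in STAT5cKO BMDMs, and for 1001 genes with 4T1 CM (7.7%), 464 lower (3.57%) and 537 higher (4.13%). Of the 277 genes whose effect differed, 233 (1.79% of all genes) had a more positive effect with 4T1 CM and 44 (0.338%) a more negative one. The most common pattern was a gene lower in STAT5cKO BMDMs with rmGM-CSF that was less lowered with 4T1 CM, seen for 180 genes. In 110 of these the effect was not called with 4T1 CM, in 58 it was called in the same direction but smaller, and in 12 it was called in the opposite direction. Another 33 genes were higher in STAT5cKO BMDMs with rmGM-CSF and less so with 4T1 CM, of which 22 had no called effect, 10 a smaller one and 1 the opposite effect with 4T1 CM. In 53 of the genes with a more positive effect with 4T1 CM the STAT5cKO level was called higher there, including the 12 that switched direction. In 8 of those with a more negative effect it was called lower there, including the 1 that switched. For 16 genes neither medium gave a called effect on its own. These groups were defined by the same contrasts, so the values given for their members describe them and are not further evidence. The gene nearest to the threshold inside it was Palld, with a difference of 0.49 (adjusted p = 0.00999), and the nearest outside was Igf2bp2, with 0.68 (adjusted p = 0.0101). The counts leaned on both STAT5fl/fl mice, since without mouse 112 there were 152 called differences (133 positive and 19 negative, 105 lower with rmGM-CSF) and without mouse 113 there were 139 (125 and 14, 101 lower with rmGM-CSF). The effect was then called for 784 and 546 genes with rmGM-CSF, and for 601 and 334 genes with 4T1 CM. Without the mouse as a block 191 differences were called, all among the 277, and 19 of them were negative.

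**Figure D1:**
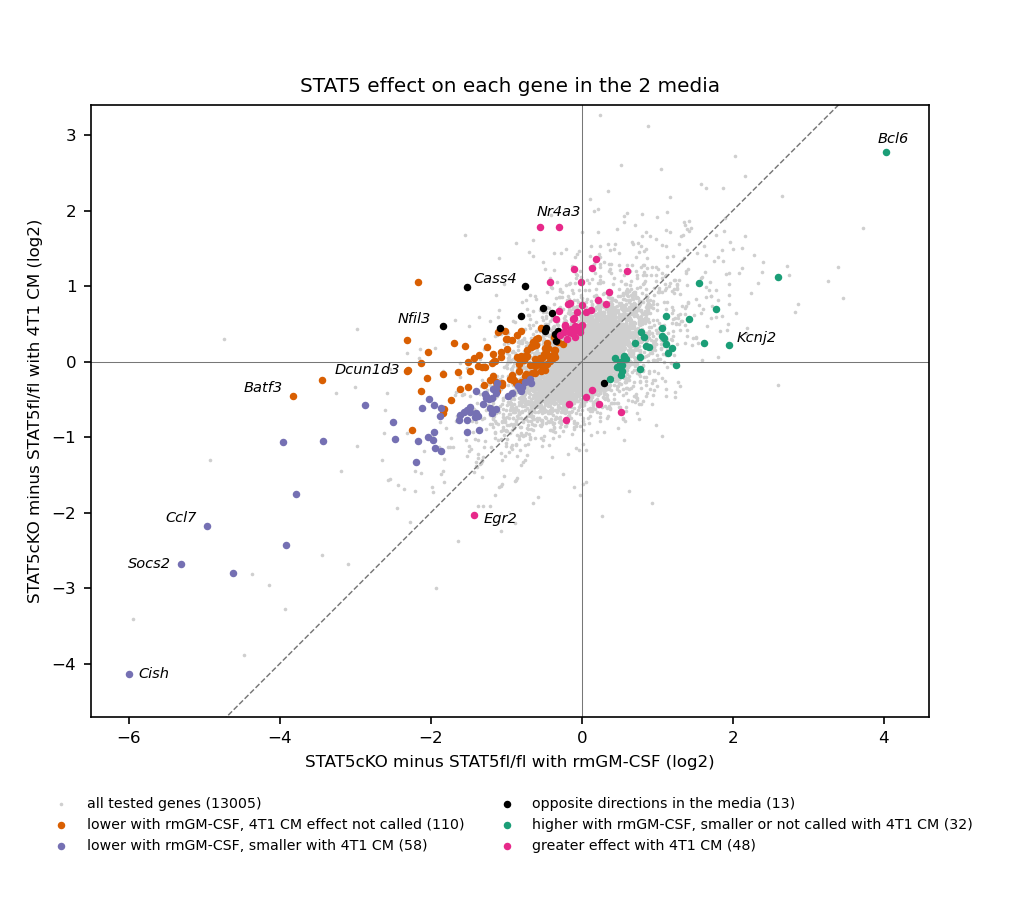
Each point is a gene, with its STAT5 effect (STAT5cKO minus STAT5fl/fl, log2) with rmGM-CSF on the x axis and with 4T1 CM on the y axis. The dashed line marks equal effects, colours mark genes whose effects differed and were called in at least 1 medium, and 11 genes lie outside the axes, with most coloured genes at the left of 0 and above the line (180 genes).

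In the 180 genes lowered less with 4T1 CM, the median STAT5 effect was -1.09 with rmGM-CSF, -0.13 with 4T1 CM and -0.08 with DMEM, against 0.00, 0.01 and 0.00 over all 13005 genes. In 165 of them rmGM-CSF raised the gene over DMEM in STAT5fl/fl BMDMs (17% of all genes) and in 111 it did so in STAT5cKO BMDMs (14.4%). With DMEM, 14 of the 180 were also lower in STAT5cKO BMDMs (1.55% of all genes). With rmGM-CSF the genotypes of all 180 were without overlap (49% of all genes), which follows from how they were chosen. Compared with rmGM-CSF, 4T1 CM gave a higher level in 84 and a lower level in 56 of the 180 genes in STAT5cKO BMDMs (17.9% and 18.5% of all genes), and a higher level in 31 and a lower level in 115 in STAT5fl/fl BMDMs (15.1% and 17.9%).

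Of the 110 genes with no called STAT5 effect in 4T1 CM, 70 were raised over DMEM by 4T1 CM in STAT5cKO BMDMs (20.7% of all genes) and 67 in STAT5fl/fl BMDMs (20.6%). The rise was called in both genotypes for 65 genes, in STAT5cKO alone for 5 and in STAT5fl/fl alone for 2, while 38 were raised in neither. In 22 of the 70, the mean STAT5cKO level with 4T1 CM reached or passed the mean STAT5fl/fl level with rmGM-CSF. A missed threshold does not show that an effect was absent, and in 76 of the 110 the 95% interval of the effect with 4T1 CM lay within 0.5 of 0 on the log2 scale. In 66 of the 110 the genotypes overlapped with 4T1 CM, about the share of all genes that did (60.7%). Without STAT5fl/fl mouse 112 or 113 the 110 genes became 73 or 72.

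**Figure D2:**
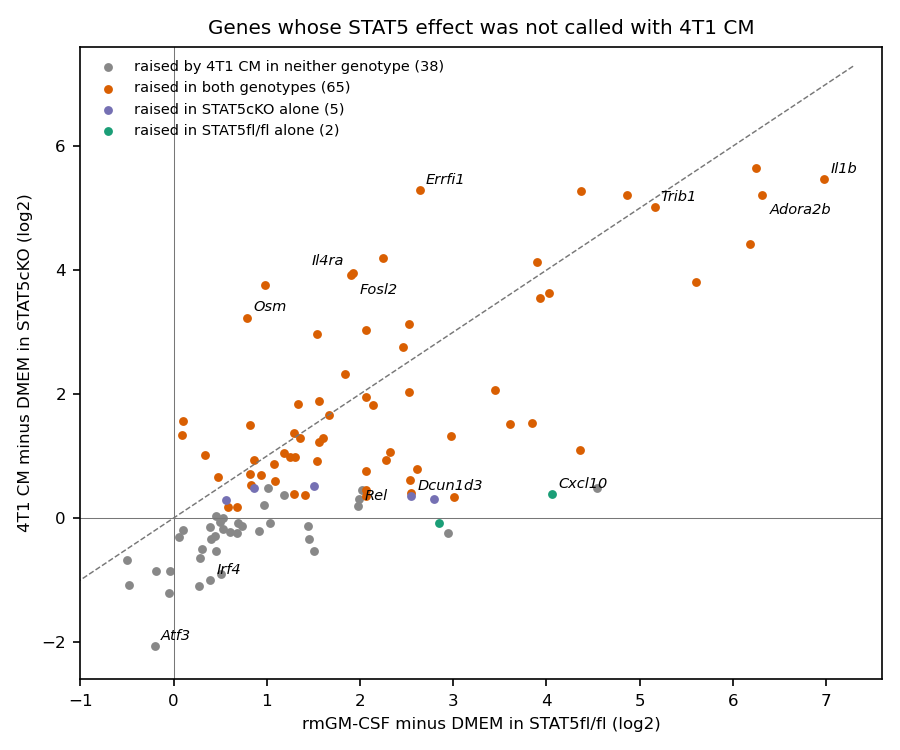
The 110 genes lower in STAT5cKO BMDMs with rmGM-CSF whose STAT5 effect was not called with 4T1 CM, with the log2 rise over DMEM that rmGM-CSF gave in STAT5fl/fl BMDMs on the x axis and the rise that 4T1 CM gave in STAT5cKO BMDMs on the y axis. Points on the dashed line rose equally, and the 38 grey genes were raised by 4T1 CM in neither genotype.

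Among the genes that 4T1 CM raised without STAT5 was Trib1, a pseudokinase that directs proteins to degradation (ENSMUSG00000032501, chr15:59648350-59657099, GRCm38). With rmGM-CSF it was at 157 and 182 CPM in STAT5fl/fl and 58.1, 62.8 and 53.6 CPM in STAT5cKO BMDMs, and with 4T1 CM at 169 and 176 CPM in STAT5fl/fl and 193, 209 and 195 CPM in STAT5cKO BMDMs. All 5 libraries with DMEM were at 4.05 to 7.05 CPM, so the STAT5cKO libraries were the low ones with rmGM-CSF alone. The STAT5 effect was -1.54 (SE 0.09, adjusted p = 1.37e-09) with rmGM-CSF and 0.21 (SE 0.09, adjusted p = 0.129) with 4T1 CM, a difference of 1.74 (SE 0.09, adjusted p = 6.59e-09). Il4ra, the chain through which macrophages receive IL-4 and IL-13 (ENSMUSG00000030748, chr7:125552120-125579474), was at 208 and 209 CPM in STAT5fl/fl and 71.5, 74.5 and 78.7 CPM in STAT5cKO BMDMs with rmGM-CSF. With 4T1 CM it reached 887 and 944 CPM in STAT5fl/fl and 760.2, 899 and 857 CPM in STAT5cKO BMDMs, all above every rmGM-CSF library, and the genotypes overlapped. Its STAT5 effect went from -1.48 (SE 0.08, adjusted p = 4.39e-10) to -0.13 (SE 0.07, adjusted p = 0.284), with a 95% interval of -0.28 to 0.03, and the difference was 1.35 (SE 0.08, adjusted p = 2.86e-08).

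Fosl2, a subunit of the AP-1 transcription factor, was at 138 and 136 CPM in STAT5fl/fl and 57.4, 65.1 and 59.6 CPM in STAT5cKO BMDMs with rmGM-CSF. With 4T1 CM Fosl2 was at 615 and 663 CPM in STAT5fl/fl and 678, 644 and 734 CPM in STAT5cKO BMDMs. The 4T1 CM libraries overlapped between genotypes and lay above all others, and the effect moved from -1.17 to 0.10 (difference 1.27, SE 0.10, adjusted p = 6.26e-07). Errfi1, which inhibits the EGF receptor, had 55.8 and 54.4 CPM in STAT5fl/fl and 24.3, 28.8 and 23.3 CPM in STAT5cKO BMDMs with rmGM-CSF. With 4T1 CM it had 271 and 210.2 CPM in STAT5fl/fl and 331, 344 and 273 CPM in STAT5cKO BMDMs, and here the STAT5cKO libraries were the higher ones. Its effect of -1.11 with rmGM-CSF became 0.39 (SE 0.11, adjusted p = 0.019), which did not pass the threshold, and the difference was 1.52 (SE 0.12, adjusted p = 2.62e-07). Ier3, an immediate early gene linked to cell survival, was at 84.3 and 89.8 CPM in STAT5fl/fl and 23.1, 24.6 and 25.8 CPM in STAT5cKO BMDMs with rmGM-CSF. With 4T1 CM Ier3 was at 70.5 and 93.8 CPM in STAT5fl/fl and 67.2, 78.8 and 74.6 CPM in STAT5cKO BMDMs. The STAT5cKO libraries, low with rmGM-CSF, lay within the STAT5fl/fl range in 2 of 3 mice with 4T1 CM, and the difference was 1.68 (SE 0.11, adjusted p = 3.8e-08). Adora2b, a receptor for adenosine, was at 85.8 and 88.5 CPM in STAT5fl/fl and 16.4, 23.9 and 19.3 CPM in STAT5cKO BMDMs with rmGM-CSF. With 4T1 CM Adora2b was at 73.9 and 81 CPM in STAT5fl/fl and 54.9, 65 and 58.2 CPM in STAT5cKO BMDMs. The genotypes did not overlap in either medium, so the dependence of Adora2b was smaller with 4T1 CM, at -0.38 (SE 0.11, adjusted p = 0.0309) against -2.13, and was not shown to be absent (difference 1.76, SE 0.12, adjusted p = 5.73e-08).

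**Figure D3:**
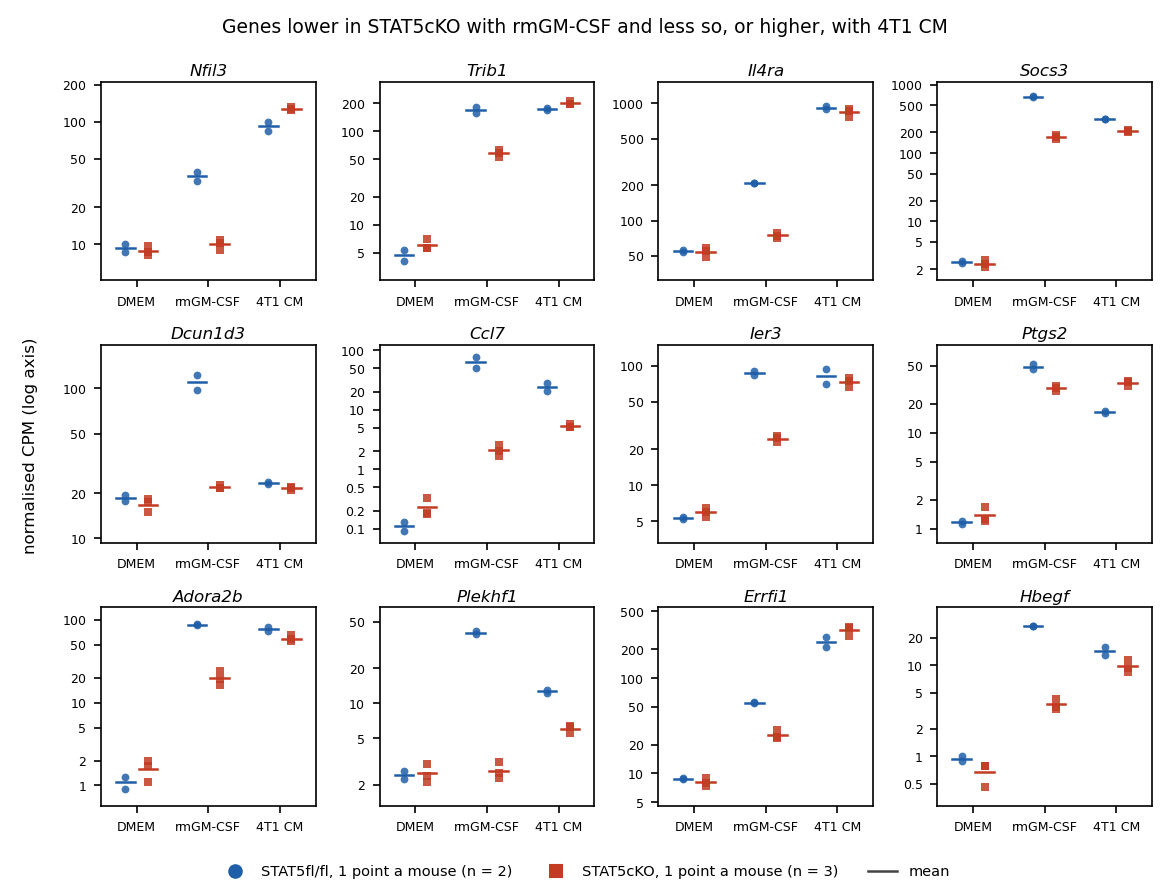
Normalised CPM (log axis) in each of the 15 libraries for the 12 genes with the smallest adjusted p-values among those lower in STAT5cKO BMDMs with rmGM-CSF and less so with 4T1 CM, with 1 point a mouse and lines at group means. In all 12 panels the STAT5cKO points lie below the STAT5fl/fl points with rmGM-CSF, and with 4T1 CM they lie above in Nfil3, Trib1, Ptgs2 and Errfi1, overlap in Il4ra and Ier3 and lie below in the other 6.

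In other genes the genotypes were close with 4T1 CM at levels near or below those of DMEM. Irf4, Batf3, Rel, Clec10a and Atf3 were among the 38 of the 110 with no called rise over DMEM in either genotype, and Dcun1d3 among the 5 raised in STAT5cKO alone. Dcun1d3, a regulator of the neddylation of cullins, was at 97.2 and 122 CPM in STAT5fl/fl BMDMs with rmGM-CSF and at 21.7, 22.6 and 21.5 CPM in STAT5cKO BMDMs. With 4T1 CM it was at 23.8 and 23 CPM in STAT5fl/fl and 21.9, 21 and 21.7 CPM in STAT5cKO BMDMs. The STAT5fl/fl libraries with rmGM-CSF alone stood far above the DMEM libraries at 14.9 to 19.5 CPM, although a small rise with 4T1 CM was called in STAT5cKO BMDMs (0.36, adjusted p = 0.00404). The effect was -2.32 with rmGM-CSF and -0.12 (95% interval -0.34 to 0.10) with 4T1 CM, and the difference was 2.20 (SE 0.14, adjusted p = 3.15e-08). Irf4, a transcription factor of dendritic and alternatively activated cells, was at 29.4 and 29.3 CPM in STAT5fl/fl and 8.1, 6.02 and 7.22 CPM in STAT5cKO BMDMs with rmGM-CSF. With 4T1 CM it was at 6.28 and 6.46 CPM in STAT5fl/fl and 6.63, 5.39 and 4.44 CPM in STAT5cKO BMDMs, where the genotypes overlapped. It was already lower without STAT5 in DMEM, at 21.8 and 22.9 CPM against 11.1, 10.5 and 11.2 CPM, and 4T1 CM lowered it under DMEM in both genotypes (-1.81 in STAT5fl/fl, adjusted p = 2.32e-09, and -1.003 in STAT5cKO, adjusted p = 1.22e-06). Its difference between the media was 1.83 (SE 0.19, adjusted p = 6.85e-06).

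Batf3, a transcription factor of dendritic cells named here after its values were seen, was at 6.05 and 7.14 CPM in STAT5fl/fl and 0.393, 0.625 and 0.32 CPM in STAT5cKO BMDMs with rmGM-CSF. With 4T1 CM Batf3 was at 0.925 and 0.826 CPM in STAT5fl/fl and 0.757, 0.803 and 0.362 CPM in STAT5cKO BMDMs, and its STAT5 effect went from -3.83 to -0.46 (95% interval -1.28 to 0.37, difference 3.38, SE 0.54, adjusted p = 0.000495). Among the libraries of these media, only the 2 STAT5fl/fl ones with rmGM-CSF were above 1 CPM. The interval with 4T1 CM is wide and does not show that the genotypes were equal. Batf3 was not followed through the alternative fits. Rel, which encodes the NF-kB subunit c-Rel, was at 374 and 395 CPM in STAT5fl/fl and 259, 258 and 239 CPM in STAT5cKO BMDMs with rmGM-CSF. With 4T1 CM Rel was at 92.3 and 94.3 CPM in STAT5fl/fl and 115, 93.5 and 119 CPM in STAT5cKO BMDMs. The 4T1 CM levels overlapped between the genotypes and with the DMEM levels of 91.8 to 100.4 CPM, and the difference was 0.83 (SE 0.10, adjusted p = 6.55e-05). Clec10a, a lectin of alternatively activated macrophages, was at 25.7 and 21.8 CPM in STAT5fl/fl and 5.54, 3.93 and 4.99 CPM in STAT5cKO BMDMs with rmGM-CSF. With 4T1 CM Clec10a was at 4.77 and 8.06 CPM in STAT5fl/fl and 5.06, 7.04 and 5.57 CPM in STAT5cKO BMDMs. Only the 2 STAT5fl/fl libraries with rmGM-CSF were high, and the difference was 2.20 (SE 0.33, adjusted p = 0.000325), or an adjusted p of 0.0168 without mouse 112. Atf3, a stress-induced factor that restrains inflammatory genes, had a mean of 374 ± 17.1 CPM (SD, n = 2 mice) against 202 ± 15.1 CPM (n = 3 mice) with rmGM-CSF and 102 ± 0.922 against 86.7 ± 7.28 CPM with 4T1 CM. With 4T1 CM Atf3 was lower than with DMEM, at -2.08 in STAT5fl/fl and -2.07 in STAT5cKO BMDMs on the log2 scale, and its difference between STAT5 effects of 0.65 (adjusted p = 0.000978) was not called without mouse 112 (0.0338) or 113 (0.0202).

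Cish, Socs2 and Socs3, feedback inhibitors of cytokine signalling, were lower in STAT5cKO BMDMs with 4T1 CM by less than with rmGM-CSF. In Socs1, another inhibitor of this family, the effect was -1.67 with rmGM-CSF and -0.79 with 4T1 CM, and the difference was not called (0.88, SE 0.29, adjusted p = 0.11). Cish, the feedback inhibitor that binds phosphorylated cytokine receptors (ENSMUSG00000032578, chr9:107296026-107302784), was at 149.8 and 147 CPM in STAT5fl/fl and 2.26, 2.63 and 1.98 CPM in STAT5cKO BMDMs with rmGM-CSF. With 4T1 CM Cish was at 33.1 and 38.7 CPM in STAT5fl/fl and 2.08, 1.99 and 2.04 CPM in STAT5cKO BMDMs. The STAT5fl/fl libraries were the high ones in both media, and between the media the STAT5fl/fl level fell by 2.05 on the log2 scale (adjusted p = 5.2e-12) while the STAT5cKO level differed by -0.18 (adjusted p = 0.445). The effect went from -5.99 (SE 0.13, adjusted p = 8.61e-17) to -4.13 (SE 0.14, adjusted p = 1.33e-13), with a difference of 1.87 (SE 0.20, adjusted p = 1.61e-05). Socs2, a related inhibitor, was at 28.9 and 28.4 CPM in STAT5fl/fl and 0.638, 0.848 and 0.639 CPM in STAT5cKO BMDMs with rmGM-CSF. With 4T1 CM Socs2 was at 80.00 and 117 CPM in STAT5fl/fl and 13.5, 15.3 and 17.3 CPM in STAT5cKO BMDMs. Both genotypes were higher with 4T1 CM than with rmGM-CSF (1.77 in STAT5fl/fl and 4.40 in STAT5cKO, adjusted p = 5.67e-09 and 2.18e-11), and the effect went from -5.30 (SE 0.36, adjusted p = 9.64e-11) to -2.68 (SE 0.14, adjusted p = 1.39e-09), with a difference of 2.63 (SE 0.35, adjusted p = 1.89e-05). Socs3, which blocks JAK kinases at gp130-type receptors (ENSMUSG00000053113, chr11:117966079-117970047), was at 681 and 654 CPM in STAT5fl/fl and 163, 181 and 169.8 CPM in STAT5cKO BMDMs with rmGM-CSF. With 4T1 CM it was at 311 and 312 CPM in STAT5fl/fl and 212, 214 and 202 CPM in STAT5cKO BMDMs, without overlap in either medium, and the effect shrank from -1.96 to -0.57 (SE 0.06, adjusted p = 5.14e-06), with a difference of 1.39 (SE 0.09, adjusted p = 2.86e-08). In all 3 genes the 95% interval of the effect with 4T1 CM lay below 0, at -4.43 to -3.84 for Cish, -2.98 to -2.38 for Socs2 and -0.70 to -0.45 for Socs3.

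Promoters are shown for Socs3, whose STAT5 effect was negative and smaller with 4T1 CM, and for Bcl6, whose effect was positive and smaller there. They were picked because, of the 26 genes looked up that had a window, only these 2 held the STAT letters TTCNNNGAA within 250 bases before a start. In windows that also take in bases after the start, 8.25% of tested genes held the letters. So 2 of 26 does not set the genes looked up apart. The bases come from RefSeq (GRCm38.p6), are given 5′ to 3′ on the minus strand of the genome, which both genes use, and carry the matches in capitals. For Bcl6 both starts with a match are given. By the deposited gene positions the Socs3 window and the second Bcl6 window lie inside the gene and the other Bcl6 window just before it.
Socs3, chr11:117969367-117969616: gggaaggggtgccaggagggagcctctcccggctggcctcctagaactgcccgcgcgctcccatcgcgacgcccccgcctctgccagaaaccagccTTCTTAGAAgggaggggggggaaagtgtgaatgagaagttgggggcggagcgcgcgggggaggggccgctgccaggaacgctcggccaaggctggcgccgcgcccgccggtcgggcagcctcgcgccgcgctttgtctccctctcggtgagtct
Bcl6, chr16:23988853-23989102: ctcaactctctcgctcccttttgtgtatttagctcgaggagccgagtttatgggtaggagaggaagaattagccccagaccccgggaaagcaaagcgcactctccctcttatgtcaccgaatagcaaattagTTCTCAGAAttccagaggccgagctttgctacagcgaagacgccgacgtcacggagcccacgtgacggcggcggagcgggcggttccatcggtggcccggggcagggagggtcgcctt
Bcl6, chr16:23981284-23981533: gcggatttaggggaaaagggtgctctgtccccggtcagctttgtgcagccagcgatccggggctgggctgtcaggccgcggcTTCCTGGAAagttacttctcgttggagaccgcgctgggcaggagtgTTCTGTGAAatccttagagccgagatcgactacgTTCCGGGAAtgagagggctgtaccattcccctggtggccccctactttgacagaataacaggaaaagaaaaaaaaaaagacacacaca
The match in Socs3 began 154 bases before the start, that in the upstream Bcl6 window 118 bases before, and the second Bcl6 window held 3, the farthest 168 bases before its start. Windows were at hand for 26 of the 32 genes looked up (not for Trib1, Ccl7, Hbegf, Clmp, Socs2 and Osm), and that of Cish held no match, which says only that the letters are not in this window. Over windows that also take in bases after the start, the STAT letters were in 21 of the 145 genes with a window among the 180 lowered less with 4T1 CM (14.5%), in 771 of 9350 tested genes (8.25%) and in 8.3% of all RefSeq windows. By pattern they were in 10 of 48 genes still lower with 4T1 CM (20.8%) and in 10 of 89 with no called effect (11.2%). The AP-1 letters TGANTCA were in 20 of the 145 (13.8%, against 6.21% of tested genes and 7.81% of windows), and the NF-kB letters GGG, any 2 bases and TTTCC in 6 (4.14%, against 2.09% and 1.63%). Both strands were searched, matches of different motifs may overlap, and a match is not evidence of binding.

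Of the 58 genes still lower with 4T1 CM, which had a median effect of -1.50 with rmGM-CSF and -0.65 with 4T1 CM, several encode secreted factors and receptors. Ccl7, a chemokine that draws monocytes, was at 51 and 77.3 CPM in STAT5fl/fl and 1.67, 2.05 and 2.56 CPM in STAT5cKO BMDMs with rmGM-CSF. With 4T1 CM Ccl7 was at 20.4 and 28.1 CPM in STAT5fl/fl and 5.06, 5.81 and 5.21 CPM in STAT5cKO BMDMs. The STAT5fl/fl libraries fell and the STAT5cKO libraries rose between the media without meeting, and the effect went from -4.96 (SE 0.25, adjusted p = 1.05e-11) to -2.17 (SE 0.19, adjusted p = 6.62e-07), with a difference of 2.77 (SE 0.19, adjusted p = 3.15e-08). Its neighbour on chromosome 11, Ccl2, was at 114 and 159 CPM in STAT5fl/fl and 9.62, 8.7 and 11.9 CPM in STAT5cKO BMDMs with rmGM-CSF. With 4T1 CM Ccl2 was at 45.9 and 58.4 CPM in STAT5fl/fl and 12.3, 16.7 and 17.5 CPM in STAT5cKO BMDMs, again without overlap (difference 2.01, SE 0.18, adjusted p = 1.26e-06). Hbegf, a ligand of the EGF receptor, was at 26.8 and 26.9 CPM in STAT5fl/fl and 3.34, 3.53 and 4.28 CPM in STAT5cKO BMDMs with rmGM-CSF. With 4T1 CM Hbegf was at 15.9 and 13 CPM in STAT5fl/fl and 8.38, 11.4 and 9.38 CPM in STAT5cKO BMDMs. The genotypes were without overlap in both media but closer with 4T1 CM, with a difference of 2.30 (SE 0.19, adjusted p = 4.44e-07). Plekhf1, a phosphoinositide-binding protein of endosomes, was at 41.4 and 38.9 CPM in STAT5fl/fl and 2.5, 2.28 and 3.13 CPM in STAT5cKO BMDMs with rmGM-CSF. With 4T1 CM Plekhf1 was at 12.3 and 13 CPM in STAT5fl/fl and 6.25, 6.38 and 5.57 CPM in STAT5cKO BMDMs. With rmGM-CSF its STAT5cKO libraries overlapped those of the same mice with DMEM (2.12 to 3 CPM), while 4T1 CM raised it by 1.27 in STAT5cKO BMDMs (adjusted p = 1.83e-06), and the difference was 2.89 (SE 0.21, adjusted p = 5.73e-08). Cd274, the checkpoint ligand PD-L1, was at 366 and 378 CPM in STAT5fl/fl and 75.3, 82.6 and 90.4 CPM in STAT5cKO BMDMs with rmGM-CSF. With 4T1 CM Cd274 was at 114 and 111 CPM in STAT5fl/fl and 54.5, 53.1 and 54.2 CPM in STAT5cKO BMDMs. The STAT5fl/fl libraries with rmGM-CSF stood apart from all others, and the effect went from -2.17 to -1.06 (difference 1.12, SE 0.11, adjusted p = 4.26e-06).

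In 12 genes lower in STAT5cKO BMDMs with rmGM-CSF the STAT5cKO level was the higher one with 4T1 CM. Nfil3, a basic leucine zipper transcription factor (ENSMUSG00000056749, chr13:52967209-52981073), had the smallest adjusted p of all. It was at 32.7 and 39 CPM in STAT5fl/fl and 10.3, 10.8 and 8.95 CPM in STAT5cKO BMDMs with rmGM-CSF. With 4T1 CM Nfil3 was at 84.1 and 100.3 CPM in STAT5fl/fl and 131, 125 and 126 CPM in STAT5cKO BMDMs, with DMEM libraries at 8.1 to 10.1 CPM. With rmGM-CSF the STAT5cKO libraries overlapped the DMEM libraries, and with 4T1 CM they passed both STAT5fl/fl libraries. The effect turned from -1.83 (SE 0.11, adjusted p = 2.47e-09) to 0.47 (SE 0.09, adjusted p = 0.00171), a difference of 2.30 (SE 0.11, adjusted p = 1.55e-09). Ptgs2, the inducible cyclooxygenase that makes prostaglandin precursors (ENSMUSG00000032487, chr1:150100031-150108227), was at 46.4 and 51.6 CPM in STAT5fl/fl and 27.3, 30.6 and 29.3 CPM in STAT5cKO BMDMs with rmGM-CSF. With 4T1 CM Ptgs2 was at 16.8 and 16.3 CPM in STAT5fl/fl and 31, 35 and 33.7 CPM in STAT5cKO BMDMs. Between the media the STAT5fl/fl level fell (4T1 CM minus rmGM-CSF -1.56, adjusted p = 2.13e-10) while the STAT5cKO level moved by 0.19 (adjusted p = 0.0343), and the effect turned from -0.75 (SE 0.08, adjusted p = 5.25e-06) to 1.004 (SE 0.09, adjusted p = 1.84e-06), with a difference of 1.76 (SE 0.12, adjusted p = 4.15e-08).

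Cass4, a scaffold protein of focal adhesions, was at 8.1 and 8.43 CPM in STAT5fl/fl and 3.09, 2.68 and 2.94 CPM in STAT5cKO BMDMs with rmGM-CSF. With 4T1 CM Cass4 was at 7.5 and 8.06 CPM in STAT5fl/fl and 13.4, 17.1 and 15.8 CPM in STAT5cKO BMDMs. The STAT5fl/fl level was close in the media (4T1 CM minus rmGM-CSF -0.09, adjusted p = 0.725), and the STAT5cKO level passed from below it to above it (difference 2.49, SE 0.25, adjusted p = 4.38e-06). Bcl3, a co-regulator of NF-kB, was at 154 and 148 CPM in STAT5fl/fl and 112, 104 and 110.4 CPM in STAT5cKO BMDMs with rmGM-CSF. With 4T1 CM Bcl3 was at 91.9 and 97.7 CPM in STAT5fl/fl and 142, 114 and 132 CPM in STAT5cKO BMDMs, without overlap in either (difference 0.92, SE 0.10, adjusted p = 1.28e-05). Slc7a5, a transporter of large neutral amino acids, was at 29.7 and 39.2 CPM in STAT5fl/fl and 17.6, 20.9 and 20.9 CPM in STAT5cKO BMDMs with rmGM-CSF. With 4T1 CM Slc7a5 was at 10.4 and 9.55 CPM in STAT5fl/fl and 15.4, 16.3 and 14.1 CPM in STAT5cKO BMDMs, and there too the order of the genotypes switched without overlap (difference 1.40, SE 0.17, adjusted p = 4.76e-05). The other genes of this kind were Cited2, Pvr, Pxdc1, Trim36, Zfp516, Paf1 and Ddit3, with differences of 0.61 (Paf1) to 1.54 (Pxdc1). In this group Trim36 (0.0114) and Ddit3 (0.0269) were not called without mouse 112, nor Paf1 (0.0167) and Ddit3 (0.0326) without mouse 113, as adjusted p-values. The genotype order switched the other way in 2510009E07Rik, whose STAT5 effect was 0.29 with rmGM-CSF and -0.29 with 4T1 CM (difference -0.58, SE 0.09, adjusted p = 0.000377, and 0.0191 as adjusted p without mouse 112).

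The 33 genes higher in STAT5cKO BMDMs with rmGM-CSF and less so with 4T1 CM had a median effect of 0.85 with rmGM-CSF and 0.19 with 4T1 CM. Relative to DMEM, rmGM-CSF lowered 13 of them in STAT5fl/fl BMDMs (13.8% of all genes) and raised 18 in STAT5cKO BMDMs (14.4%), and 29 were higher with 4T1 CM than with rmGM-CSF in STAT5fl/fl BMDMs (15.1%). Without STAT5fl/fl mouse 112 or 113 the 33 genes became 15 or 9, and without the mouse as a block 18. Bcl6, a transcriptional repressor whose gene STAT5 is known to repress (ENSMUSG00000022508, chr16:23965052-23988852), had the largest effect among them. It was at 16.5 and 16.5 CPM in STAT5fl/fl and 264, 265 and 276 CPM in STAT5cKO BMDMs with rmGM-CSF. With 4T1 CM Bcl6 was at 30.6 and 30.3 CPM in STAT5fl/fl and 203, 198 and 224 CPM in STAT5cKO BMDMs, against 139 to 158 CPM with DMEM. Both STAT5fl/fl libraries were far below DMEM in each medium, less so with 4T1 CM, and the effect went from 4.02 (SE 0.08, adjusted p = 7.58e-16) to 2.78 (SE 0.07, adjusted p = 9.57e-14), with a difference of -1.25 (SE 0.11, adjusted p = 1.32e-06).

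Kcnj2, an inward rectifier potassium channel, was at 46.8 and 55.9 CPM in STAT5fl/fl and 189, 210.0 and 199 CPM in STAT5cKO BMDMs with rmGM-CSF. With 4T1 CM Kcnj2 was at 6.04 and 5.42 CPM in STAT5fl/fl and 6.77, 6.9 and 6.34 CPM in STAT5cKO BMDMs. Its DMEM levels were 145 and 162 CPM in STAT5fl/fl and 205, 211 and 191 CPM in STAT5cKO BMDMs, so that 4T1 CM lowered it in both genotypes and rmGM-CSF in STAT5fl/fl BMDMs (difference -1.75, SE 0.14, adjusted p = 4.44e-07). Jag1, a ligand of Notch receptors, was at 88.1 and 73.6 CPM in STAT5fl/fl and 169, 214 and 171 CPM in STAT5cKO BMDMs with rmGM-CSF. With 4T1 CM Jag1 was at 261 and 201 CPM in STAT5fl/fl and 243, 303 and 235 CPM in STAT5cKO BMDMs, where the genotypes overlapped (difference -1.01, SE 0.10, adjusted p = 3.76e-06). Mylip, a ubiquitin ligase of the LDL receptor, was at 43.4 and 37.7 CPM in STAT5fl/fl and 86.7, 89.5 and 91.3 CPM in STAT5cKO BMDMs with rmGM-CSF. With 4T1 CM Mylip was at 139.8 and 133 CPM in STAT5fl/fl and 158, 131 and 155 CPM in STAT5cKO BMDMs, again with overlap (difference -1.02, SE 0.11, adjusted p = 1.5e-05). Fgd3, an exchange factor for CDC42, kept a smaller effect of 0.32 with 4T1 CM against 1.09 (difference -0.78, SE 0.08, adjusted p = 7.31e-06). Fos, the AP-1 subunit of the immediate early response, was at 36.3 and 29 CPM in STAT5fl/fl and 104, 118 and 114 CPM in STAT5cKO BMDMs with rmGM-CSF. With 4T1 CM Fos was at 195 and 224 CPM in STAT5fl/fl and 341, 290.2 and 389.6 CPM in STAT5cKO BMDMs. STAT5cKO BMDMs were higher without overlap in both media and with DMEM (29.95 and 30.1 against 53.7, 51.6 and 50.5 CPM), and the difference of -1.09 (SE 0.15, adjusted p = 0.000156) became an adjusted p of 0.02 without mouse 113. Cav1, the caveolae protein, was at 10.6 and 11.6 CPM in STAT5fl/fl and 61.4, 87.1 and 53.1 CPM in STAT5cKO BMDMs with rmGM-CSF. With 4T1 CM Cav1 was at 38.9 and 35.8 CPM in STAT5fl/fl and 60.2, 119 and 65.2 CPM in STAT5cKO BMDMs, with STAT5cKO mouse 115 the highest in each. Its difference of -1.50 (SE 0.15, adjusted p = 6.85e-06) was not called without the block (0.0523) or with the block as a random effect (0.0496).

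**Figure D4:**
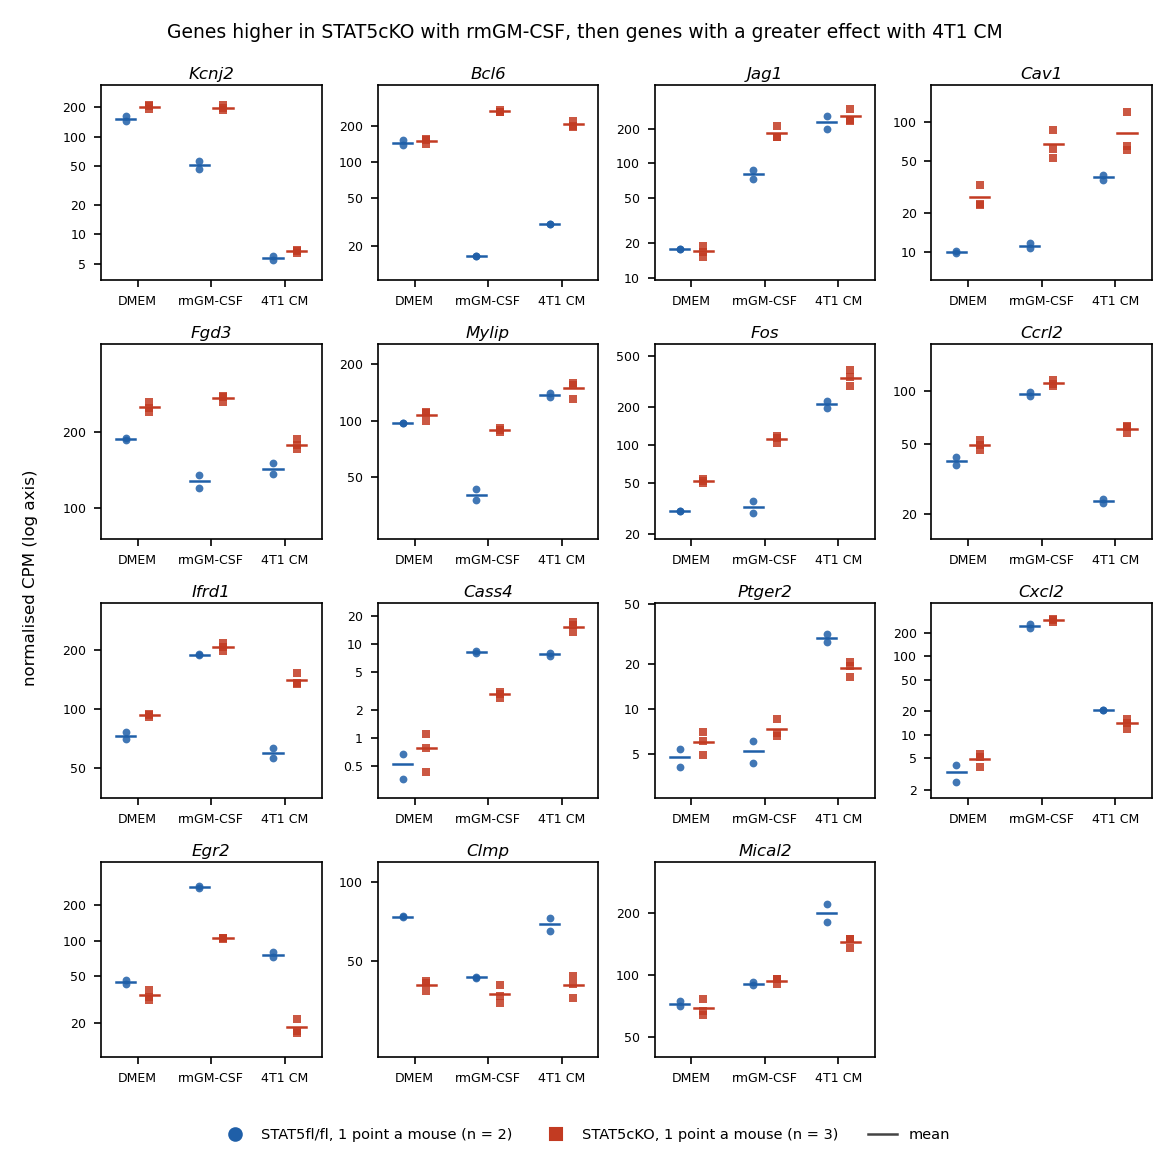
Normalised CPM (log axis) in each of the 15 libraries, with 1 point a mouse and lines at group means. The first 7 panels are genes higher in STAT5cKO BMDMs with rmGM-CSF and less so with 4T1 CM, the next 3 genes called higher in STAT5cKO BMDMs with 4T1 CM and the last 5 genes called lower there, and in Kcnj2, Jag1 and Mylip the genotypes are close with 4T1 CM.

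In 53 genes the effect was more positive with 4T1 CM and the STAT5cKO level was called higher there. In 39 of these no effect was called with rmGM-CSF, and in 2 it was called higher in both media (Rgs1 and Slc2a6, named here after their values were seen). Ccrl2, an atypical receptor that binds chemerin, was at 98.7 and 93.2 CPM in STAT5fl/fl and 106, 109 and 114 CPM in STAT5cKO BMDMs with rmGM-CSF. With 4T1 CM Ccrl2 was at 23.2 and 24.3 CPM in STAT5fl/fl and 61.9, 57.4 and 63 CPM in STAT5cKO BMDMs. The genotypes were close with rmGM-CSF and far apart with 4T1 CM, where STAT5fl/fl BMDMs fell below their DMEM level of 42.4 and 38 CPM. The effect was 0.19 (SE 0.07, adjusted p = 0.0717) with rmGM-CSF and 1.35 (SE 0.08, adjusted p = 7.57e-09) with 4T1 CM, with a difference of 1.16 (SE 0.10, adjusted p = 8.11e-07). Ifrd1, a transcriptional co-regulator, was at 189 and 190.2 CPM in STAT5fl/fl and 199, 217 and 207 CPM in STAT5cKO BMDMs with rmGM-CSF. With 4T1 CM Ifrd1 was at 63.1 and 56.1 CPM in STAT5fl/fl and 153, 134 and 136 CPM in STAT5cKO BMDMs (difference 1.11, SE 0.10, adjusted p = 1.48e-06). Without mouse 112 or 113 the 53 genes became 21 or 17, and without STAT5cKO mouse 114 they became 35. Only 8 genes were called lower in STAT5cKO BMDMs with 4T1 CM with an effect more negative than with rmGM-CSF. With rmGM-CSF 6 of them had no called effect, 1 was called lower and 1 higher. The 8 genes became 3, 2 and 4 without mice 114, 115 and 116 and 2 without the block. Egr2, a zinc finger factor of the early response, was at 277 and 288 CPM in STAT5fl/fl and 106, 104 and 106 CPM in STAT5cKO BMDMs with rmGM-CSF. With 4T1 CM Egr2 was at 79.6 and 72.5 CPM in STAT5fl/fl and 21.8, 17.3 and 16.7 CPM in STAT5cKO BMDMs. It was lower in STAT5cKO BMDMs in both media, with the greater effect in 4T1 CM (-1.42 and -2.03, difference -0.61, SE 0.11, adjusted p = 0.00236). Ptger2, a receptor for prostaglandin E2, was at 6.11 and 4.35 CPM in STAT5fl/fl and 6.62, 8.57 and 6.9 CPM in STAT5cKO BMDMs with rmGM-CSF. With 4T1 CM Ptger2 was at 28 and 31.6 CPM in STAT5fl/fl and 16.3, 19.2 and 20.6 CPM in STAT5cKO BMDMs, without overlap in either. The STAT5cKO libraries were the higher ones with rmGM-CSF, where the effect was not called (0.52, adjusted p = 0.0982), and the lower ones with 4T1 CM (-0.67, adjusted p = 0.0025), with a difference of -1.19 (SE 0.21, adjusted p = 0.00165).

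The differences of the other genes named in this group were -0.81 (SE 0.14, adjusted p = 0.00177) for the neutrophil chemokine Cxcl2, -0.56 (SE 0.10, adjusted p = 0.00261) for the adhesion protein Clmp and -0.51 (SE 0.10, adjusted p = 0.00286) for the actin regulator Mical2. None of these 5 negative differences was called under every alternative. As adjusted p-values, Egr2 was not called without the block (0.0152), without mouse 112 (0.0718), 113 (0.0132), 115 (0.0134) or 116 (0.0191). Ptger2 was not called without the block (0.0102), without mouse 113 (0.0828) or 115 (0.011). Cxcl2 was not called without the block (0.0123) or without mouse 112 (0.0277). Clmp was not called without the block (0.0156), without mouse 112 (0.0763), 113 (0.0147), 114 (0.0103) or 116 (0.0134). Mical2 was not called without the block (0.0241), with the block as a random effect (0.0157), without mouse 112 (0.0975) or 114 (0.0191).

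Gene lists were described by how many members had a different STAT5 effect in the media, beside the 1.79% (more positive) and 0.338% (more negative) of all genes. Of 16 STAT5 target genes tested, 7 had a more positive effect with 4T1 CM and 0 a more negative one (median effect of -1.06 with rmGM-CSF and -0.27 with 4T1 CM), namely Cish, Socs2, Socs3, Trib1, Pim1, Osm and Cdkn1a. With rmGM-CSF 12 of the 16 were lower in STAT5cKO BMDMs (6.24% of all genes), and with 4T1 CM 7 (3.57%). Cdkn1a, the cell cycle inhibitor p21, went from an effect of -0.86 to 0.36 (difference 1.22, SE 0.10, adjusted p = 8.11e-07). The effect with 4T1 CM was not called (adjusted p = 0.0101), and with DMEM Cdkn1a was higher in STAT5cKO BMDMs by 0.95 (adjusted p = 1.52e-05). Osm, a cytokine of the IL-6 family, was at 13.5 and 11.1 CPM in STAT5fl/fl and 6.08, 6.2 and 5.05 CPM in STAT5cKO BMDMs with rmGM-CSF. With 4T1 CM Osm was at 51.7 and 50.6 CPM in STAT5fl/fl and 49.98, 54.6 and 55.8 CPM in STAT5cKO BMDMs, with all 5 libraries of 4T1 CM above all of rmGM-CSF and the genotypes mixed (difference 1.13, SE 0.16, adjusted p = 0.000161, not called without mouse 112 (0.0117)). Pim1, a survival kinase, had an effect of -0.31 with 4T1 CM, which was not called (adjusted p = 0.0469), against -1.06 with rmGM-CSF. The difference was 0.74 (SE 0.12, adjusted p = 0.000949), and without mouse 112 it was 0.63 and not called. In other targets no difference was called. Ccl17, a chemokine for T cells, was at 24.7 and 21.8 CPM in STAT5fl/fl and 0, 0.0446 and 0.0639 CPM in STAT5cKO BMDMs with rmGM-CSF. With 4T1 CM Ccl17 was at 3.75 and 2.63 CPM in STAT5fl/fl and 0, 0 and 0.0453 CPM in STAT5cKO BMDMs. The 6 STAT5cKO libraries were below the floor of 3 counts, so the depth did not allow a difference between the media to be seen (adjusted p = 0.837). In Bcl2l1 and Id1 the difference was likewise not called (adjusted p = 0.377 and 0.0942), with effects of -0.63 and -1.73 with rmGM-CSF.

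Of 19 cytokine receptors, 4 had a more positive effect with 4T1 CM and 0 a more negative one (median effect of -0.01 with rmGM-CSF and -0.02 with 4T1 CM). Besides Il4ra these were Csf2rb, the common beta chain, Csf3r, the receptor of G-CSF, and Ifnar1, a chain of the type I interferon receptor. Csf2rb was at 1661 and 1681 CPM in STAT5fl/fl and 690.0, 689 and 782 CPM in STAT5cKO BMDMs with rmGM-CSF. With 4T1 CM Csf2rb was at 1898 and 1900.1 CPM in STAT5fl/fl and 1252, 1150.5 and 1319 CPM in STAT5cKO BMDMs. STAT5cKO BMDMs were lower without overlap in both media and rose with 4T1 CM (effect -1.21 and -0.61, difference 0.60, SE 0.08, adjusted p = 0.00013). The difference of Csf3r (0.43, adjusted p = 0.0029) was not called without the block (0.0186), with the block as a random effect (0.0107), with the 10 libraries alone (0.0106), without mouse 112 (0.0658), 113 (0.03), 114 (0.0206) or 115 (0.0157). That of Ifnar1 (0.42, adjusted p = 0.00479) was not called without the block (0.0145), with the 10 libraries alone (0.0162), without mouse 112 (0.0917), 113 (0.0477), 114 (0.0158) or 116 (0.0269). Csf2ra had no called difference (0.07, adjusted p = 0.881), and 0 of 13 JAK and STAT genes had one in either direction in edgeR, the likelihood ratio test or DESeq2, with 2 of the 13 at an unadjusted p under 0.05, near the 13.6% of all genes (median effect of -0.01 with rmGM-CSF and -0.06 with 4T1 CM), where the smallest adjusted p was that of Ptpn6 (0.0516).

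Of 21 NF-kB target genes 9 had a more positive effect with 4T1 CM and 0 a more negative one (median effect of -0.20 with rmGM-CSF and 0.23 with 4T1 CM). With rmGM-CSF 8 of the 21 were lower and 0 higher in STAT5cKO BMDMs (6.24% and 3.57% of all genes). With 4T1 CM 0 were lower and 6 higher (3.57% and 4.13%). Il1b, the inflammasome-processed cytokine, was at 923 and 1239 CPM in STAT5fl/fl and 392, 389 and 356 CPM in STAT5cKO BMDMs with rmGM-CSF. With 4T1 CM Il1b was at 583 and 782 CPM in STAT5fl/fl and 443, 605 and 571 CPM in STAT5cKO BMDMs, where the genotypes overlapped. Its difference of 1.16 (SE 0.16, adjusted p = 0.000211) was not called without mouse 112 (0.0123) or 113 (0.0134). Nfkbie, an inhibitor that holds NF-kB in the cytoplasm, was at 283 and 289.9 CPM in STAT5fl/fl and 249.9, 258 and 252 CPM in STAT5cKO BMDMs with rmGM-CSF. With 4T1 CM Nfkbie was at 96.2 and 95.2 CPM in STAT5fl/fl and 167, 158 and 163 CPM in STAT5cKO BMDMs, closer together with rmGM-CSF than with 4T1 CM (difference 0.94, SE 0.10, adjusted p = 6.85e-06). Nfkb2, the p100 subunit, turned from -0.32 to 0.26, of which the latter was not called (adjusted p = 0.0142; difference 0.57, SE 0.08, adjusted p = 0.000161). The other members with a difference were Ptgs2, Rel and Bcl3, given above, and Il1a, Traf1 and Birc3. Of these, Il1a was not called without mouse 113 (0.0333) or 116 (0.0106) and Traf1 was not called without the block (0.0317), with the block as a random effect (0.0172), without mouse 112 (0.0321), 113 (0.0725) or 116 (0.014). The survival factor Birc3 was not called without the block (0.0298), with the block as a random effect (0.0202), with the 10 libraries alone (0.0176), without mouse 112 (0.0382), 113 (0.206), 114 (0.029) or 116 (0.034), as adjusted p-values.

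Of 25 immediate early genes, 9 had a more positive and 2 a more negative effect with 4T1 CM (median effect of -0.23 with rmGM-CSF and 0.30 with 4T1 CM). With 4T1 CM 9 were called higher and 1 lower in STAT5cKO BMDMs (4.13% and 3.57% of all genes). Beside Fosl2, Ier3, Atf3, Fos and Egr2, already described, Maff, a small Maf protein, went from -1.001 to 0.30 (difference 1.31, SE 0.13, adjusted p = 4.39e-06). The effect of Maff with 4T1 CM was not called (adjusted p = 0.0396). Nr4a3, an orphan nuclear receptor, was at 3.37 and 2.31 CPM in STAT5fl/fl and 1.86, 2.68 and 2.24 CPM in STAT5cKO BMDMs with rmGM-CSF. With 4T1 CM Nr4a3 was at 8.37 and 7.69 CPM in STAT5fl/fl and 25.5, 36.2 and 21.4 CPM in STAT5cKO BMDMs. The genotypes were mixed at a low level with rmGM-CSF and separate with 4T1 CM, and the difference of 2.11 (SE 0.27, adjusted p = 9.1e-05) was not called when limma voom treated the mouse as random (adjusted p = 0.0165). Of the remaining members Junb was not called without mouse 112 (0.0421) and Klf6 was not called without mouse 112 (0.0101), 113 (0.147), 114 (0.0143) or 115 (0.011). The factor Klf4 was not called without the block (0.0699), with the block as a random effect (0.0435), without mouse 112 (0.0323), 113 (0.206), 115 (0.0266) or 116 (0.0102), and the mRNA-destabilising protein Zfp36 was not called without the block (0.028), with the block as a random effect (0.0148), without mouse 112 (0.084), 113 (0.0258), 115 (0.0138) or 116 (0.0208). Among 13 ERK feedback genes 3 had a more positive and 1 a more negative effect (median effect of 0.22 with rmGM-CSF and 0.41 with 4T1 CM). Phlda1 was at 14.2 and 12.3 CPM in STAT5fl/fl and 9.86, 10.7 and 9.08 CPM in STAT5cKO BMDMs with rmGM-CSF. With 4T1 CM Phlda1 was at 20.7 and 22.1 CPM in STAT5fl/fl and 43.8, 49.96 and 39.7 CPM in STAT5cKO BMDMs, and the STAT5cKO libraries were the higher ones with 4T1 CM alone (difference 1.48, SE 0.17, adjusted p = 2.74e-05). The more negative one was the ERK phosphatase Dusp6 (-0.64, adjusted p = 0.00985), which was not called without the block (0.226), with the block as a random effect (0.227), without mouse 112 (0.012), 113 (0.395), 114 (0.0158) or 115 (0.0373). Dusp16, more positive, was not called without mouse 112 (0.02), 113 (0.212), 114 (0.0165), 115 (0.011) or 116 (0.0256).

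Among 19 chemokines 5 had a more positive and 1 a more negative effect with 4T1 CM (median effect of -1.31 with rmGM-CSF and -0.56 with 4T1 CM). With 4T1 CM 9 were called lower in STAT5cKO BMDMs and 0 higher (3.57% and 4.13% of all genes). The 9 included Cxcl2, whose effect with rmGM-CSF was not called (0.23, adjusted p = 0.139). Ccl6 went from -1.96 to -0.93 (difference 1.03, SE 0.13, adjusted p = 4.74e-05). Ccl22, a chemokine for cells with CCR4, was at 21.8 and 16.4 CPM in STAT5fl/fl and 4.17, 4.33 and 5.5 CPM in STAT5cKO BMDMs with rmGM-CSF. With 4T1 CM Ccl22 was at 3.8 and 1.5 CPM in STAT5fl/fl and 2.27, 2.6 and 3.85 CPM in STAT5cKO BMDMs. The genotypes overlapped at a low level with 4T1 CM, where the 95% interval of the effect was -0.58 to 0.83 (difference 2.17, SE 0.28, adjusted p = 5.67e-05). Cxcl10, induced by interferons, went from -1.83 to -0.62, of which the latter was not called (adjusted p = 0.0334). Its difference was 1.18 (SE 0.20, adjusted p = 0.0011), and without mouse 113 it was 0.92 and not called. Of 29 interferon-stimulated genes 5 had a more positive effect and 0 a more negative one (median effect of -0.13 with rmGM-CSF and -0.13 with 4T1 CM), and apart from Cxcl10 they were guanylate-binding proteins. Gbp7 was at 100.5 and 130.5 CPM in STAT5fl/fl and 17.1, 20.04 and 25.6 CPM in STAT5cKO BMDMs with rmGM-CSF. With 4T1 CM Gbp7 was at 31 and 44.3 CPM in STAT5fl/fl and 14.1, 19 and 22.2 CPM in STAT5cKO BMDMs, lower in STAT5cKO BMDMs in both (difference 1.44, SE 0.21, adjusted p = 0.00022). Gbp2 was not called without the block (0.0573), with the block as a random effect (0.0496), without mouse 113 (0.213), 115 (0.0134) or 116 (0.0253), Gbp3 was not called without the block (0.0253), with the block as a random effect (0.0115) or without mouse 113 (0.0372) and Gbp5 was not called without the block (0.0649), with the block as a random effect (0.048), without mouse 112 (0.024), 113 (0.0132) or 116 (0.0208). Of 13 genes of type 2 and alternative activation 5 had a more positive effect and 0 a more negative one (median effect of -1.86 with rmGM-CSF and -0.13 with 4T1 CM), namely Ccl22, Clec10a, Il4ra, Irf4 and Klf4.

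Of 18 targets of hypoxia-inducible factors 4 had a more positive effect with 4T1 CM and 0 a more negative one (median effect of 0.06 with rmGM-CSF and 0.10 with 4T1 CM). Slc2a1, the glucose transporter GLUT1, was at 135 and 152 CPM in STAT5fl/fl and 102, 105 and 101 CPM in STAT5cKO BMDMs with rmGM-CSF. With 4T1 CM Slc2a1 was at 242 and 263 CPM in STAT5fl/fl and 283, 299.8 and 277 CPM in STAT5cKO BMDMs, with STAT5cKO lower in the former and slightly higher, without a called effect, in the latter (difference 0.67, SE 0.08, adjusted p = 4.35e-05). Ndrg1 kept a smaller effect, -0.57 against -1.31 (difference 0.75, SE 0.09, adjusted p = 6.18e-05). Hexokinase 2, Hk2, was at 102 and 89.5 CPM in STAT5fl/fl and 53.4, 55.6 and 59.95 CPM in STAT5cKO BMDMs with rmGM-CSF. With 4T1 CM Hk2 was at 172 and 144 CPM in STAT5fl/fl and 174, 145 and 164 CPM in STAT5cKO BMDMs, where the genotypes overlapped, and its difference of 0.80 (SE 0.12, adjusted p = 0.00051) was not called without mouse 112 (0.0101) or 113 (0.0192). Mxi1, a Myc antagonist, was not called without mouse 112 (0.0436), 113 (0.133), 115 (0.0165) or 116 (0.0243). Among 13 costimulation and checkpoint genes Cd274 and Cd83 had a more positive effect and 0 a more negative one (median effect of -0.00 with rmGM-CSF and 0.01 with 4T1 CM). Cd83 went from -0.54 to 0.44, of which the latter was not called (difference 0.97, SE 0.13, adjusted p = 9.1e-05). Of 20 survival genes 3 had a more positive effect (median effect of -0.03 with rmGM-CSF and -0.01 with 4T1 CM), Pim1 and Birc3, given above, and Bcl2a1d. Bcl2a1d, which has near-identical copies that may share its reads, was not called without the block (0.0309), with the block as a random effect (0.0236), without mouse 112 (0.0394), 113 (0.0914), 114 (0.0271) or 116 (0.022).

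**Figure D5:**
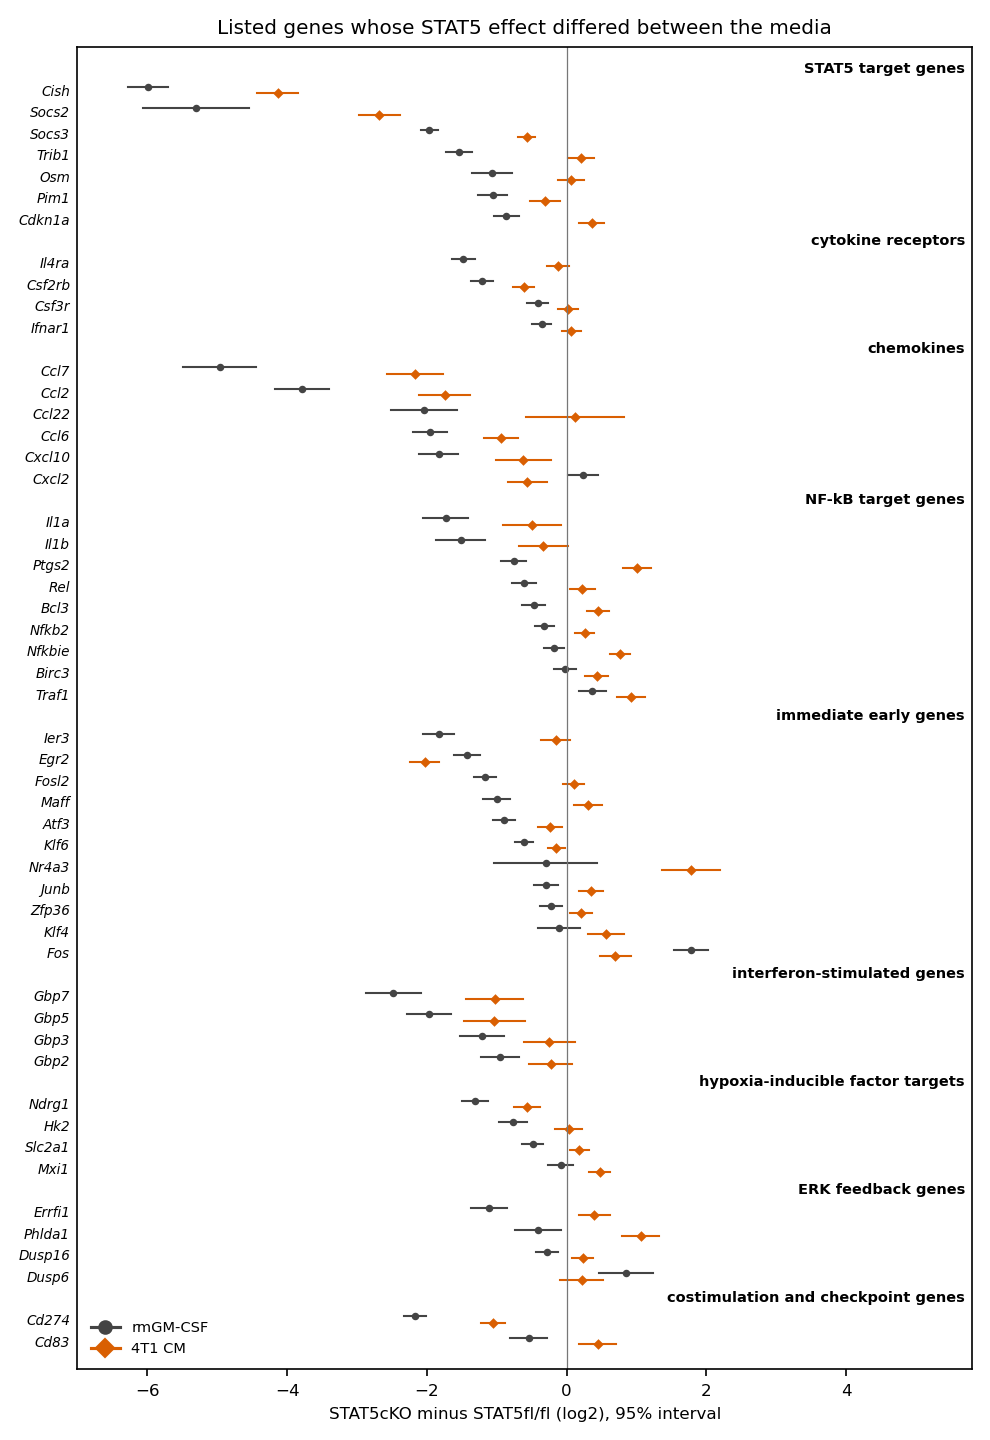
STAT5 effect (STAT5cKO minus STAT5fl/fl, log2) with its 95% interval with rmGM-CSF (dark circles) and with 4T1 CM (orange diamonds) for the 51 genes of 9 lists whose effect differed between the media, each gene drawn in the first list that holds it. In most genes the orange diamond lies to the right of the circle, and Fos, Egr2, Cxcl2 and Dusp6 are the exceptions.

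Most STAT5 effects seen with rmGM-CSF had no called difference in 4T1 CM, at 630 of the 811 genes lower and 429 of the 464 higher in STAT5cKO BMDMs, which does not show that they were equal. Over all 13005 genes a difference was called for 2.13%, so the lack of a call was the usual case for any gene. In several lists few or no members had a called difference. By edgeR's quasi-likelihood test, its likelihood ratio test and DESeq2 there were 0 called differences in either direction among 10 MHC class II genes (median effect of -0.70 with rmGM-CSF and -0.57 with 4T1 CM), 24 ribosome biogenesis genes (median effect of 0.01 with rmGM-CSF and -0.10 with 4T1 CM) and 22 cholesterol synthesis genes (median effect of -0.35 with rmGM-CSF and -0.34 with 4T1 CM), with 1, 4 and 1 at an unadjusted p under 0.05 (13.6% of all genes). Of 18 ATF4 stress genes (median effect of -0.38 with rmGM-CSF and -0.07 with 4T1 CM) 11 were lower and 0 higher in STAT5cKO BMDMs with rmGM-CSF (6.24% and 3.57% of all genes). With 4T1 CM 1 was lower and 2 were higher (3.57% and 4.13%). The difference was called only for Ddit3, in the positive direction (adjusted p = 0.00153, not called without mouse 112 (0.0269) or 113 (0.0326)). At an unadjusted p under 0.05, 11 of the 18 had a more positive and 0 a more negative effect with 4T1 CM (8.7% and 4.93% of all genes). Of 21 matrix and remodelling genes (median effect of 0.84 with rmGM-CSF and 0.65 with 4T1 CM), 5 were higher and 1 lower in STAT5cKO BMDMs with rmGM-CSF (3.57% and 6.24% of all genes). With 4T1 CM 5 were higher and 1 lower (4.13% and 3.57%). A difference was called only for Spp1, osteopontin, in the negative direction (-0.45, adjusted p = 0.00668, not called without the block (0.197), with the block as a random effect (0.122), with the 10 libraries alone (0.0106), without mouse 112 (0.0338), 113 (0.22), 114 (0.0256), 115 (0.0138) or 116 (0.0149)). Of 21 genes that the study names in its RNA-seq results, a list that it chose on these samples, 4 had a more positive effect with 4T1 CM (Ccl2, Ccl7, Cxcl10 and Pim1) and 1 a more negative one (Bcl6). The list had a median effect of 0.52 with rmGM-CSF and 0.74 with 4T1 CM, and Pim1 was not called without mouse 112 (0.0277) nor Cxcl10 without mouse 113 (0.0776). The named matrix gene Lox was higher in STAT5cKO BMDMs by 1.85 with rmGM-CSF and by 1.48 with 4T1 CM, and the difference was not called (-0.36, SE 0.44, adjusted p = 0.807). With DMEM the effect on Lox was 2.03. The effects on the named collagens were not called in either medium. They were 2.66 and 2.19 for Col1a1 (adjusted p = 0.0328 and 0.0526) and 1.62 and 1.53 for Col5a2 (adjusted p = 0.0429 and 0.0469), with rmGM-CSF given first.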

How the data were processed

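The counts of 15 RNA-seq libraries, 10 of them with rmGM-CSF or 4T1 CM, were analysed. As deposited, the values are fragment counts per gene, which the authors made with Trimmomatic 0.33 for trimming, HISAT2 2.1.0 for alignment to GRCm38, and by counting pairs on the strand of the gene with featureCounts 1.6.2, at a mapping quality of at least 10 and with both ends mapped, without normalization. The authors deposited these counts beside gene positions and a summed exon length in bp. The study removed 1 STAT5fl/fl replicate in quality control, which is not analysed here. Groups and mouse numbers came from the library labels. For the difference between STAT5 effects and for media compared within a genotype, p-values rest on how responses to the media varied between these mice. Those of STAT5 effects within a medium rest on the spread between mice in each group, with libraries of the same mouse taken as independent.

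The test took the 13005 of 55385 genes that passed 1 CPM in 2 or more libraries, and ran in edgeR 4.0.16 (R 4.3.3) with relative log expression factors (0.945 to 1.08) and the quasi-likelihood F test, with calls at a Benjamini-Hochberg adjusted p under 0.01. A CPM of 1 is 16 to 22.9 counts. The difference between STAT5 effects was fitted with the mouse as a block and treatments within genotype (6 residual degrees of freedom), as were comparisons of media within a genotype. STAT5 effects within a medium came from a model of 6 groups without the block (9 residual degrees of freedom), since mice of the genotypes differ. Levels are CPM scaled by the normalization factors, except for marker sums, which use the raw totals. Standard errors and 95% intervals use the moderated dispersion. Libraries of the same mouse, which pair by their label, deviated together with a mean correlation over genes of 0.142 in STAT5fl/fl (3 distinct values, since deviations of 2 mice mirror each other) and 0.157 in STAT5cKO (9 pairs). No libraries of a group agreed within sampling noise. On simulated counts of 13005 genes, 76.5% of 200 interactions of log2 size 1 (mean count at least 20) were recovered, 4.38% of calls were false, and 0 genes were called where nothing changed.

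Named genes were Stat5a and Stat5b, those with the smallest adjusted p-values of each pattern without overlap of the genotypes (12 lower and 8 higher with rmGM-CSF, 5 in each direction with 4T1 CM, of which 1 of the 8 is not reported here), genes of the lists and genes that the study names. Genes that changed direction and genes next to the threshold were added. The comparison, the members and the lists were chosen with earlier results of these data known. Alternatives were TMM factors, other low-count filters, no block, limma 3.58.1 voom with a random mouse effect, the likelihood ratio and legacy tests, DESeq2 1.42.0, the 10 libraries alone, thinned libraries, an adjusted p of 0.05 and the omission of each mouse.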

Additional observations from a re-analysis of the deposited data

Results flagged for a closer look

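Results were listed here when the STAT5 effect differed between the media by the test of that difference (edgeR quasi-likelihood, mouse as block). This held for 233 genes with a more positive effect with 4T1 CM and 44 with a more negative one. Among them, 13 genes had called STAT5 effects of opposite direction in the media. In 12 the STAT5cKO level was lower with rmGM-CSF and higher with 4T1 CM, with differences on the log2 scale of 2.49 (SE 0.25) for Cass4, 2.30 (SE 0.11) for Nfil3, 1.76 (SE 0.12) for Ptgs2, 1.54 (SE 0.20) for Pxdc1, 1.40 (SE 0.17) for Slc7a5, 1.22 (SE 0.17) for Trim36, 1.03 (SE 0.11) for Pvr, 0.92 (SE 0.10) for Bcl3, 0.88 (SE 0.09) for Cited2, 0.73 (SE 0.13) for Ddit3, 0.72 (SE 0.10) for Zfp516 and 0.61 (SE 0.09) for Paf1. In 2510009E07Rik the order was the opposite, with a difference of -0.58 (SE 0.09). The largest adjusted p among the 13 was that of Ddit3 (0.00153). Without mouse 112 Trim36 (0.0114), Ddit3 (0.0269) and 2510009E07Rik (0.0191) were not called, and without mouse 113 Paf1 (0.0167) and Ddit3 (0.0326) were not, as adjusted p-values, and the other 9 genes were called without each of the 5 mice. In each of the 13 genes the 5 libraries of a medium separated by genotype in both media. These genes were chosen by called effects in both media, so their separation is not further evidence. Over all genes the genotypes were without overlap for 49% with rmGM-CSF, and they overlapped for 60.7% with 4T1 CM. With 2 and 3 libraries a group, single libraries could not be tested as outliers.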

How the results depend on the processing

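Of the 277 called differences, TMM factors kept 276 (of 278 called), filterByExpr 274 (of 277), the legacy test 273 (of 276), no low-count filter 272 (of 311), DESeq2 274 (of 348), the 10 libraries alone 244 (of 255) and thinning 260 (of 273). The share with a more positive effect ran from 76.9% (adjusted p under 0.05) to 90.1% (no block) over the alternatives (84.1% in the reported fit). Other scalings moved the median difference over all genes by less than 0.01. Here and below, genes counted as lower or higher with a medium are those of the patterns above, whose effect also differed between the media. At an adjusted p under 0.05 there were 510 differences (392 positive, 118 negative), 2145 genes with an effect with rmGM-CSF and 1957 with 4T1 CM, and the patterns held 284 (lower with rmGM-CSF), 80 (higher with rmGM-CSF), 26 (lower with 4T1 CM) and 129 (higher with 4T1 CM) genes. The likelihood ratio test called 418, 91 of them negative, with 62 genes higher with rmGM-CSF, 14 lower with 4T1 CM and 91 higher with 4T1 CM. Without the replicate block, 19 differences were negative, and 18 genes were higher with rmGM-CSF and 2 lower with 4T1 CM. With the block as a random effect (225 called, 218 shared) 27 were negative and 21 higher with rmGM-CSF. With the 10 libraries alone 5 genes were lower with 4T1 CM. The block could not be fitted to effects within a medium.

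Leaving out each mouse gave 139 to 231 differences (125 to 198 positive, 14 to 34 negative), 546 to 1010 genes with an effect with rmGM-CSF, 334 to 835 with 4T1 CM, 101 to 157 genes lower with rmGM-CSF (72 to 103 of them without a called effect with 4T1 CM), 9 to 25 higher with rmGM-CSF, 1 to 4 lower with 4T1 CM and 17 to 40 higher with 4T1 CM. The fits without a STAT5fl/fl mouse leave 1 library in each STAT5fl/fl group, which is assumed to vary like the others, and fewer samples give fewer calls by construction. Of 81 named genes, 45 kept direction and call in all 15 alternatives, 36 lost the call in at least 1 and 0 changed direction. 2 STAT5fl/fl mice limit the precision of each effect, and genes near 1 CPM have 16 to 22.9 counts at that level.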
